A study of Mus musculus with 4 samples.

Results

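The germline and meiosis genes described here are 39 protein-coding mouse genes, taken as a list of symbols and grouped by their known function. This list and the other gene lists below were chosen with earlier results of these data known. They comprise 10 genes of the synaptonemal complex and the chromosome axis, 14 of the piRNA pathway and the germ granule, 6 of meiotic recombination, and 9 germ cell regulators and other germline genes. All 39 were found among the 24421 genes of the count files. RNA was from R1 cells, a mouse embryonic stem cell (ESC) line, before (Undiff, 2 libraries) and after (Day4, 2 libraries) differentiation with retinoic acid (RA). The methods describe Undiff as ESCs maintained with leukaemia inhibitory factor, whereas the labels describe embryoid bodies. Day4 cells were embryoid bodies kept for 4 days without that factor and then for 4 days with RA, so that factor withdrawal, embryoid body culture, time and RA cannot be told apart in this comparison. The RA dose is 2 µM in the design text and 2 mM in the treatment label. The labels name no introduced allele, and both states come from this single line.

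Meiosis reduces the chromosome number in germ cells. In its prophase, homologous chromosomes are cut and repaired against each other while the synaptonemal complex, a protein ladder between chromosome axes, holds them together. In the male germline, PIWI proteins bind short RNAs called piRNAs, which silence transposons, and Tudor-domain proteins gather these factors in perinuclear granules. Many of these genes have promoters rich in CpG that are kept silent in somatic cells by DNA methylation, and in ESCs the repressor complex PRC1.6 is known to act on them through the DNA-binding proteins MGA-MAX, which bind an E-box, and E2F6.

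The libraries held 32099074 to 47730944 counts on genes, and 3 counts, used here as the floor of detection, corresponded to 0.0629 to 0.0935 CPM, the count scaled to a library of 1000000 counts. Fragments assigned to no gene made up 12.1% and 13.2% in Undiff and 7.50% and 7.74% in Day4. The 8 pluripotency markers summed to 4545 and 4563 CPM in Undiff and to 26.2 and 21.0 CPM in Day4, and all 8 were called lower. All 8 RA response genes were called higher, with a summed level of 18.9 and 20.2 CPM in Undiff and 855 and 869 CPM in Day4. Among somatic markers, 8 of 8 mesoderm genes were called higher, 7 of 8 endoderm genes were called higher and 1 lower, and 2 of 8 neural genes were called higher and 3 lower. Over all genes tested, 20.6% were called lower and 22.2% higher. These are bulk samples, in which fewer cells of a type and less RNA per cell cannot be told apart.

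The promoters of the 4 members with the largest absolute log2 fold change among called members averaging at least 100 normalized counts are shown first, followed by those of Sycp3 and Brdt, which were chosen after their values were seen, as members with motifs that fell and rose. The sequences are from RefSeq (GRCm38.p6), start 250 bases before the RefSeq transcription start, and end at that start or, where GENCODE places the start of the gene farther upstream, before that position. Capitals mark the E-box CACGTG and the E2F core TCCCGC on either strand, which share no bases in these windows.
Hormad2: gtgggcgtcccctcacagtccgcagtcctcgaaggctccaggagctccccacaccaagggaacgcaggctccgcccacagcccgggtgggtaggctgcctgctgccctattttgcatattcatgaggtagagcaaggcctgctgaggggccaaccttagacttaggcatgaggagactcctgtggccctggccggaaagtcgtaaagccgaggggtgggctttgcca
Mov10l1: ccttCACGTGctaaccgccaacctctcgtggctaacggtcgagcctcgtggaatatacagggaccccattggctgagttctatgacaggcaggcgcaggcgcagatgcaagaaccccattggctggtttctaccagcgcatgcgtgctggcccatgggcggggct
Tdrd12: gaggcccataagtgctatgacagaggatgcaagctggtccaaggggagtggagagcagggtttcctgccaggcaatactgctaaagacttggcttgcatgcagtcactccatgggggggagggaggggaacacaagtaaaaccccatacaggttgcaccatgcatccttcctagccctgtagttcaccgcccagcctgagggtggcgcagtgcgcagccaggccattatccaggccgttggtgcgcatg
Hormad1: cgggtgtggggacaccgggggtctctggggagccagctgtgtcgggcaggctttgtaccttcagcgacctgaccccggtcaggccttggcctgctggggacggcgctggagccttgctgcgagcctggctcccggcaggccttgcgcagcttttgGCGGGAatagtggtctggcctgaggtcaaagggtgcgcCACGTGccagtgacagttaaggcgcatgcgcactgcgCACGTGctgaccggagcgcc
Sycp3: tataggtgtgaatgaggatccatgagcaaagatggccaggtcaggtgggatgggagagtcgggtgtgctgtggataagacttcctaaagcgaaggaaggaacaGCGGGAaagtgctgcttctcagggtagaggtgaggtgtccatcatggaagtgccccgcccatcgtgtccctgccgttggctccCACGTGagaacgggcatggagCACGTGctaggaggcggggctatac
Brdt: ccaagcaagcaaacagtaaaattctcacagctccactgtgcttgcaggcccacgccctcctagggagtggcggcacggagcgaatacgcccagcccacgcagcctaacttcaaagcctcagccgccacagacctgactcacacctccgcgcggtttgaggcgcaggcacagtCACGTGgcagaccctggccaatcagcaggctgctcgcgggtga
The windows are chr11:4441106-4441332 on the minus strand for Hormad2, chr15:88982744-88982908 on the plus strand for Mov10l1, chr7:35537746-35537994 on the minus strand for Tdrd12, chr3:95559427-95559676 on the plus strand for Hormad1, chr10:88459337-88459568 on the plus strand for Sycp3, and chr5:107330944-107331158 on the plus strand for Brdt. The Hormad1 window holds 2 E-boxes and 1 E2F core, as does that of Sycp3. The windows of Mov10l1 and Brdt hold 1 E-box each. Neither motif is in the windows of Hormad2 and Tdrd12.

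Most germline and meiosis genes were lower in Day4. A gene was called when edgeR's quasi-likelihood test gave a Benjamini-Hochberg adjusted p of at most 0.05 over all 19891 genes with a count, together with a log2 fold change at or beyond -1 or 1 and an average of 5 or more normalized counts. All 39 members had a count, and all 39 passed the minimum. By this rule 30 members (76.9%) fell, against 20.6% of all genes tested. Another 3 members (7.69%) rose, against 22.2% of all genes tested, leaving 6 that were not called. Among the 16472 genes that, like all members, averaged 5 or more normalized counts, 24.9% fell and 26.8% rose. The values of Day4 were all below those of Undiff for 32 members and all above them for 4, and the states overlapped for 3. All below and all above were each the case for 42.7% of all genes tested, and all below for 45.8% of the 16472 genes. The median log2 fold change was -3.63 over the members and -0.03 over all genes tested. Of the 30 members that fell, 23 had a log2 fold change of -3 or lower and 10 of -5 or lower.

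**Figure D1:**
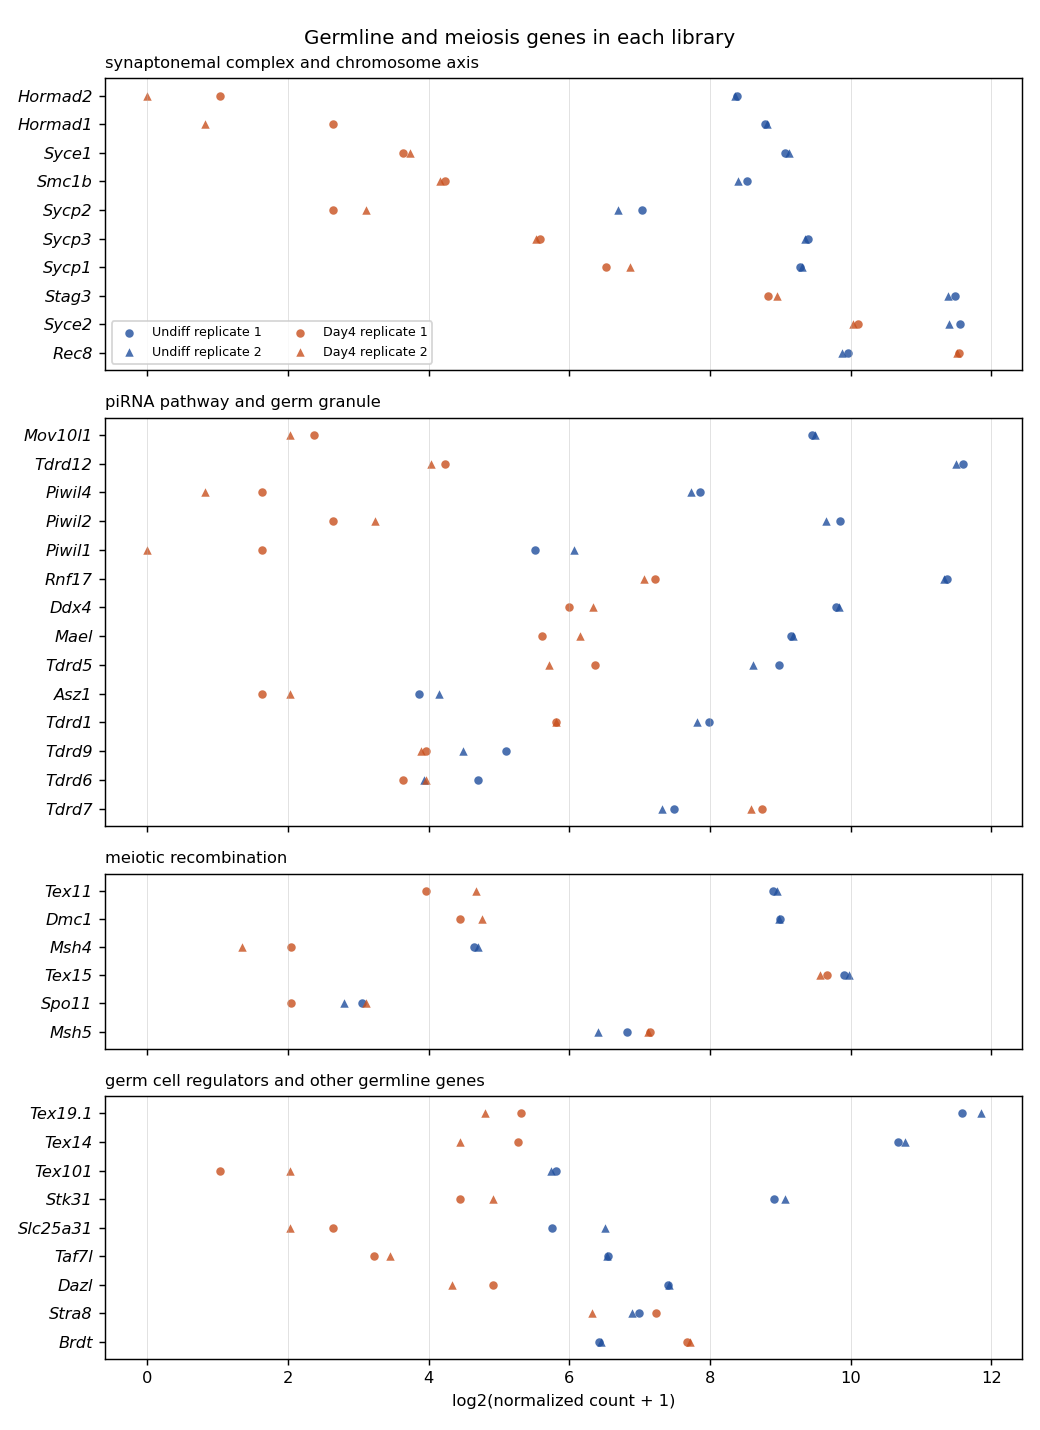
Level of each of the 39 genes in each library, as log2 of the normalized count plus 1 (x axis), by function group. Blue is Undiff, orange is Day4, and circles and triangles are replicates 1 and 2; the orange points lie to the left of the blue points for 32 genes.

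As a share of each library, the 39 genes together took 730 and 720 CPM in Undiff and 194 and 187 CPM in Day4. The largest drop in summed level relative to its start was that of the regulators and other germline genes, from 151 and 171 CPM to 13.5 and 10.9 CPM. The piRNA pathway and germ granule genes went from 264 and 249 CPM to 24.2 and 22.7 CPM. The axis genes summed to 260 and 244 CPM in Undiff and 129 and 127 CPM in Day4, of which Rec8, which rose, made up 26.1 and 24.4 CPM in Undiff and 81.6 and 79.6 CPM in Day4. Without Rec8, the other 9 axis genes went from 234 and 219 CPM to 47.4 and 47.6 CPM. The recombination genes went from 54.5 and 55.0 CPM to 27.2 and 26.1 CPM. These sums weigh each gene by its abundance and are given without a test.

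**Figure D2:**
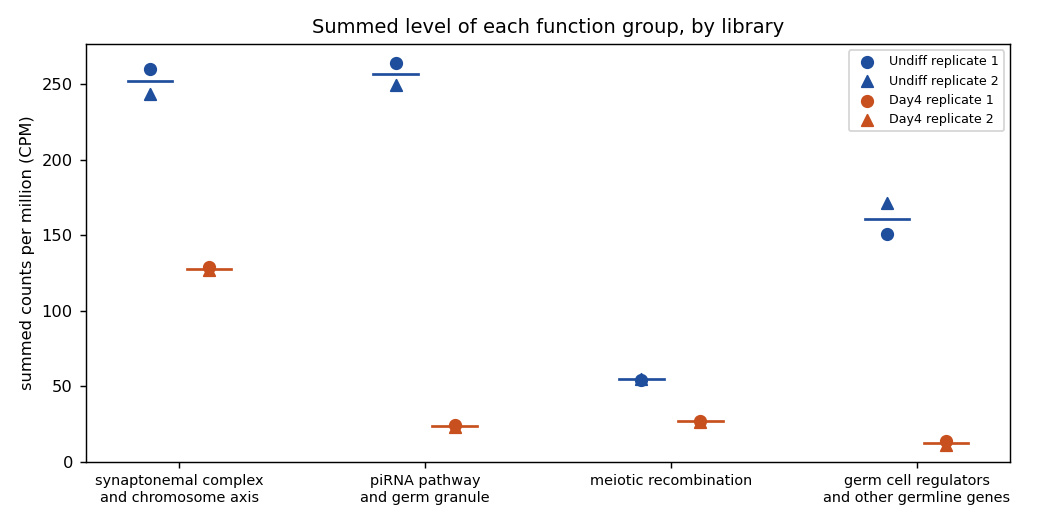
Summed CPM of the genes of each function group (y axis, from 0) in the 2 Undiff (blue) and 2 Day4 (orange) libraries, with a line at the mean of each state. The axis group has the highest Day4 sum, at 129 and 127 CPM, of which Rec8 makes up 81.6 and 79.6 CPM, and the regulators the lowest, at 13.5 and 10.9 CPM.

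To compare levels between genes, counts were also expressed as RPKM. RPKM is CPM taken on TMM-scaled library sizes in place of library totals, divided by the exon length in kilobases. In Undiff, 28 of the 39 genes had a mean of at least 1 RPKM, against 8 in Day4, and the median level was 3.18 RPKM in Undiff and 0.207 RPKM in Day4. The highest in Undiff were Tex19.1 (43.8 and 52.6 RPKM) and Syce2 (46.9 and 42.4 RPKM), whose libraries overlap, and next came Tdrd12 (19.0 and 17.8 RPKM). The lowest mean levels in Undiff were those of Tdrd6 (0.0745 RPKM), Spo11 (0.101 RPKM) and Tdrd9 (0.152 RPKM). In Day4, Rec8 was highest (36.4 and 35.7 RPKM), followed by Syce2 (17.3 and 16.5 RPKM), and the other 6 genes at or above a mean of 1 RPKM were Tdrd7, Stag3, Tex15, Stra8, Msh5 and Brdt.

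Of the 10 genes of the synaptonemal complex and the chromosome axis, 9 fell and 1 rose, with a median log2 fold change of -3.98. Standard errors (SE) given with log2 fold changes derive from the test statistic and understate the error where Day4 counts are few. Sycp1, the transverse filament that spans the complex, had 620 and 631 normalized counts in Undiff and 90.9 and 116 in Day4 (log2 fold change -2.57, SE 0.11, adjusted p = 1e-10). The lateral elements, which line the chromosome axes, are formed by Sycp2 and Sycp3. Sycp2 had 130 and 103 normalized counts in Undiff and 5.22 and 7.68 in Day4 (log2 fold change -4.12, SE 0.31). Sycp3 had 669 and 654 normalized counts in Undiff and 47.0 and 45.3 in Day4 (log2 fold change -3.84, SE 0.12). Of the exon bases of Sycp3, 52.2% overlap exons of Chpt1 on the opposite strand, and whether the counting used strand is not stated, so that its level is uncertain. The central element genes parted in size. Syce1 had 535 and 556 normalized counts in Undiff and 11.5 and 12.3 in Day4 (log2 fold change -5.50, SE 0.16), whereas Syce2 had 2992 and 2707 in Undiff and kept 1101 and 1051 in Day4 (log2 fold change -1.41, SE 0.06).

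Hormad1 and Hormad2 encode HORMA-domain proteins that coat unpaired axes. In Day4, Hormad1 came close to the floor and Hormad2 was at it. Hormad1 had 438 and 450 normalized counts in Undiff and 5.22 and 0.768 in Day4, a 167-fold difference (95% counting interval 76.4 to 456, log2 fold change -7.32, adjusted p = 1.2e-11). Its Day4 libraries differed, and the log2 fold change was -8.96 without Day4 replicate 1 and -6.40 without Day4 replicate 2. Hormad2 had 321 and 274 counts in the Undiff libraries and 1 and 0 counts in the Day4 libraries, which gives a ratio of 749 with a 95% counting interval of 134 to 29630 (adjusted p = 3.2e-12). Its fitted log2 fold change was -9.19, and -8.16 without Day4 replicate 2, while without Day4 replicate 1 no Day4 count was left. Cohesin, the ring that holds sister chromatids together, has meiosis-specific subunits, of which Smc1b, Stag3 and Rec8 are members. Smc1b had 369 and 335 normalized counts in Undiff and 17.8 and 16.9 in Day4 (log2 fold change -4.34, SE 0.18). Stag3 had 2862 and 2661 in Undiff and 450 and 494 in Day4 (log2 fold change -2.54, SE 0.07). Rec8 went the other way, with 998 and 938 normalized counts in Undiff and 2978 and 2915 in Day4, and rose 3.04-fold (log2 fold change 1.60, SE 0.06, adjusted p = 1.1e-11).

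**Figure D3:**
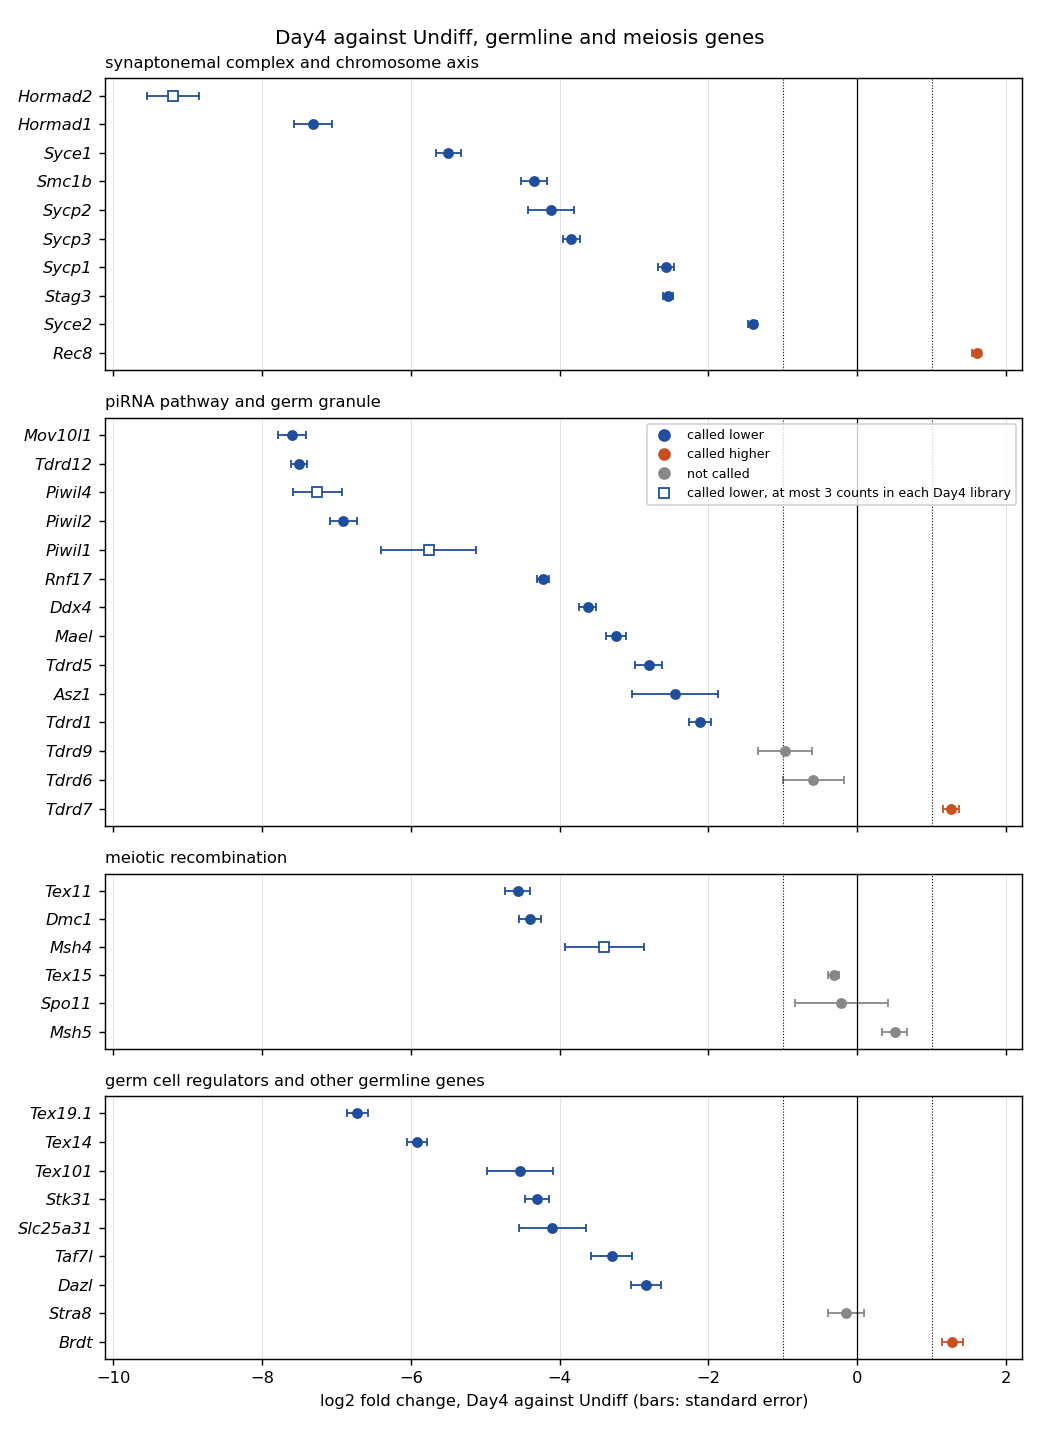
Log2 fold change of Day4 against Undiff (x axis) with its standard error for each of the 39 genes, by function group. Dotted lines mark -1 and 1. The bars derive from the test statistic and understate the error of genes with few Day4 counts. Blue genes were called lower (30), orange higher (3) and grey were not called (6), and open squares are the 4 genes at 3 counts or fewer in each Day4 library.

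Of the 14 genes of the piRNA pathway and the germ granule, 11 fell, 1 rose and 2 were not called, with a median log2 fold change of -3.43. The 3 PIWI genes, which encode the proteins that carry piRNAs, were all lower and all at low counts in Day4. Piwil2 (MILI) had 919 and 804 normalized counts in Undiff and 5.22 and 8.45 in Day4, a ratio of 122 (95% counting interval 75.0 to 214, log2 fold change -6.91, adjusted p = 8.8e-13). Piwil4 (MIWI2) had 221 and 177 counts in Undiff and 2 and 1 in Day4, a ratio of 167 (95% counting interval 56.7 to 813). Piwil1 (MIWI) had 43 and 55 counts in Undiff and 2 and 0 in Day4, a ratio of 61.7 (95% counting interval 16.6 to 516). Low Day4 counts made these values depend on single libraries. The log2 fold change of Piwil4 was -7.26, and -7.96 and -6.67 without Day4 replicates 1 and 2, and that of Piwil1 was -5.76, and -4.65 without Day4 replicate 2, while without Day4 replicate 1 it had no Day4 count. Mov10l1, the helicase that hands piRNA precursors to processing, had 701 and 719 normalized counts in Undiff and 4.18 and 3.07 in Day4, a 200-fold difference (95% counting interval 101 to 465, log2 fold change -7.60). Ddx4 (Vasa), an RNA helicase used as a general germ cell marker, had 885 and 907 normalized counts in Undiff and kept 62.7 and 79.8 in Day4 (log2 fold change -3.62, SE 0.11). Mael, a piRNA factor of the germ granule, had 569 and 580 in Undiff and 48.1 and 69.9 in Day4 (log2 fold change -3.24, SE 0.13). Asz1, which acts at the mitochondria-associated germ granule, was low throughout, with 13.5 and 16.8 normalized counts in Undiff and 2.09 and 3.07 in Day4. Its ratio was 5.66 (95% counting interval 2.29 to 16.8, log2 fold change -2.45, adjusted p = 0.0016).

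The 7 Tudor-domain genes of this group, a family known for binding methylated arginines of PIWI proteins, did not move as a block, as 4 fell, 1 rose and 2 were not called. Tdrd12 had 3082 and 2896 normalized counts in Undiff and 17.8 and 15.4 in Day4, a 183-fold difference (95% counting interval 133 to 260), and its adjusted p of 4.1e-15 was the smallest among the members. Rnf17, also known as Tdrd4, had 2655 and 2571 in Undiff and 148 and 133 in Day4 (log2 fold change -4.23, SE 0.08). Tdrd5 had 504 and 390 in Undiff and 81.5 and 51.4 in Day4 (log2 fold change -2.80, SE 0.18). Both states were thus well above the floor for Rnf17 and Tdrd5. Tdrd1 had 253 and 225 in Undiff and 55.4 and 55.3 in Day4 (log2 fold change -2.11, SE 0.15). Tdrd7, a granule component that is also known for a role in the lens, rose 2.41-fold, with 178 and 158 normalized counts in Undiff and 427 and 384 in Day4 (log2 fold change 1.26, SE 0.11, adjusted p = 2e-07). The 2 genes that were not called were both low. Tdrd9 had 33.3 and 21.5 normalized counts in Undiff and 14.6 and 13.8 in Day4, and its log2 fold change of -0.97 (SE 0.36, adjusted p = 0.027) was just short of the minimum. Tdrd6 had 25.0 and 14.4 in Undiff and 11.5 and 14.6 in Day4, overlapping (log2 fold change -0.59, SE 0.41, adjusted p = 0.20).

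Of the 6 recombination genes, 3 fell and 3 were not called, with a median log2 fold change of -1.86. Spo11, whose protein makes the DNA breaks that begin recombination, was near the floor in both states, with 7.29 and 5.98 normalized counts in Undiff and 3.13 and 7.68 in Day4, and no difference was detectable at this depth (adjusted p = 0.76). Dmc1, the meiosis-specific recombinase, had 511 and 503 normalized counts in Undiff and 20.9 and 26.1 in Day4 (log2 fold change -4.40, SE 0.15, adjusted p = 7.1e-12). The undifferentiated cells thus held far more RNA of the recombinase than of the gene for the break-making enzyme, with mean levels of 6.10 RPKM and 0.101 RPKM. Tex11, an X-linked gene needed for crossovers, had 474 and 493 normalized counts in Undiff and 14.6 and 24.6 in Day4 (log2 fold change -4.56, SE 0.17). Msh4 and Msh5 encode partners of 1 heterodimer that stabilizes recombination intermediates, and their values parted. Msh4 had 23 and 21 counts in Undiff and 3 and 2 in Day4, a ratio of 11.1 (95% counting interval 4.40 to 35.8, adjusted p = 5.5e-05). Msh5 had 112 and 83.8 normalized counts in Undiff and 141 and 138 in Day4, without overlap, but its log2 fold change of 0.50 (SE 0.16, adjusted p = 0.013) was below the minimum. Tex15, a germ cell gene of DNA repair and transposon silencing, was kept, with 954 and 1004 normalized counts in Undiff and 812 and 759 in Day4 (log2 fold change -0.32, SE 0.07, adjusted p = 7.2e-04).

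Of the 9 germ cell regulators and other germline genes, 7 fell, 1 rose and 1 was not called, with a median log2 fold change of -4.10. Stra8, named for its stimulation by RA and needed for entry into meiosis, had 126 and 117 normalized counts in Undiff and 149 and 79.1 in Day4. The Day4 libraries thus lay on either side of both Undiff libraries, and the log2 fold change of -0.16 (SE 0.24, adjusted p = 0.56) did not pass the test, while all 8 RA response genes on the separate list did. Dazl, an RNA-binding protein that licenses germ cells for sexual development, had 168 and 170 normalized counts in Undiff and 29.25 and 19.19 in Day4 (log2 fold change -2.84, SE 0.21, adjusted p = 2.4e-08). Tex19.1, a gene of germ cells and pluripotent cells, had 3068 and 3686 in Undiff and 38.7 and 26.9 in Day4, a 105-fold difference (95% counting interval 83.5 to 135, adjusted p = 8.8e-14). Because fragments with more than 1 alignment were left out of the counting, its count can miss fragments shared with its paralog Tex19.2. Tex14, which keeps the bridges between germ cells open, had 1633 and 1751 normalized counts in Undiff and 37.6 and 20.7 in Day4 (log2 fold change -5.91, SE 0.13).

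The other genes of this group were lower in Undiff to begin with, except Stk31. Stk31, a Tudor-domain kinase-like gene of the testis, had 480 and 537 normalized counts in Undiff and 20.9 and 29.2 in Day4 (log2 fold change -4.30, SE 0.16). Taf7l, an X-linked germ cell form of a general transcription factor subunit, had 92.7 and 92.1 in Undiff and 8.36 and 9.98 in Day4 (log2 fold change -3.30, SE 0.28). Slc25a31, the ADP/ATP carrier of male germ cell mitochondria, had 53.1 and 89.7 in Undiff and 5.22 and 3.07 in Day4 (log2 fold change -4.10, SE 0.45). All of these fell to a small share of their Undiff level. Tex101, a surface glycoprotein of germ cells, had 55.2 and 52.6 in Undiff and 1.04 and 3.07 in Day4 (log2 fold change -4.54, SE 0.44, and -5.55 without Day4 replicate 2). Brdt, the testis-specific member of the bromodomain family that reads acetylated histones, rose 2.42-fold, with 84.4 and 86.1 normalized counts in Undiff and 203 and 210 in Day4 (log2 fold change 1.28, SE 0.14, adjusted p = 1.5e-06).

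Genes of the same pathways outside the 39 were counted in the same fit, in which 20.6% of all genes tested fell and 22.2% rose. The shares were 24.9% and 26.8% among all genes averaging 5 or more normalized counts. Of 31 further meiosis genes, 22 fell and 1 rose, with a median log2 fold change of -1.81. Syce3, another central element gene, had 81 and 64 counts in Undiff and none in Day4, at least 60.8-fold lower against a floor of 3 counts over the state. Ccnb1ip1, a crossover factor, had 1542 and 1818 normalized counts in Undiff and 19.8 and 8.45 in Day4 (log2 fold change -6.97), and Hsf2bp, which works with BRCA2 in meiosis, had 1378 and 1415 in Undiff and 14.6 and 23.0 in Day4 (log2 fold change -6.16). Of 16 further piRNA pathway genes, 10 fell and 1 rose, with a median of -1.13, and the largest changes among the more abundant were those of Morc1 (log2 fold change -6.67, SE 0.12), Tex19.2 (2 and 3 counts in Day4) and Gpat2 (log2 fold change -3.99, SE 0.17). Of 13 primordial germ cell genes, 12 fell and none rose, with a median of -4.55, and the 1 gene that was not called was Nanos3, with 44.8 and 75.4 normalized counts in Undiff and 58.5 and 67.6 in Day4 (adjusted p = 0.70). Several genes of that list, such as Lin28a, Dppa2 and Dppa4 (log2 fold changes -6.50, -6.61 and -6.49), are also expressed in pluripotent cells.

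**Figure D4:**
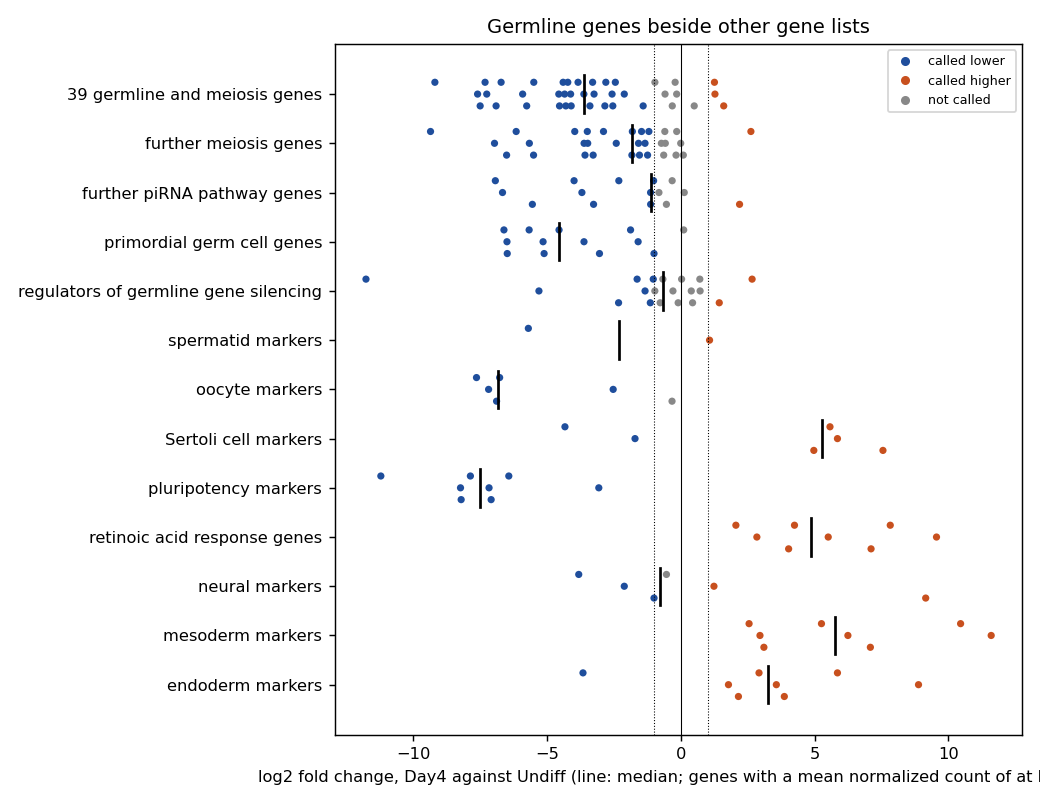
Log2 fold change of Day4 against Undiff (x axis) for the 39 genes and for 12 other lists, with genes averaging 5 or more normalized counts as points, coloured by call, and a line at their median. The pluripotency markers lie farther to the left (median -7.52) and the RA response (median 4.88) and mesoderm (median 5.75) genes to the right.

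Markers of later germ cells and of the gonad were examined beside these results. Of all genes tested, 20.6% were called lower and 22.2% higher. Of 13 spermatid markers, 1 was called lower (Ldhc, 131 and 110 normalized counts in Undiff and 3.13 and 1.54 in Day4) and 1 higher (Hspa1l, 68.8 and 68.2 in Undiff and 125 and 159 in Day4). Of the same list, Tnp1, Akap4 and H1fnt had no count in any library and 6 others were at 3 counts or fewer in every library, among them the protamine genes Prm1 and Prm2, and the list summed to 5.73 and 5.02 CPM in Undiff and 3.80 and 4.53 CPM in Day4. Of 12 oocyte markers, Oosp1 and Oog1 had no count, 5 were called lower and none higher, and the list summed to 8.81 and 10.9 CPM in Undiff and 0.687 and 0.608 CPM in Day4, led by Zp3 with 258 and 323 normalized counts in Undiff and 1.04 and 1.54 in Day4. Of 8 Sertoli cell markers, 4 were called higher and 2 lower, but Sox9, Gata4 and Wt1, which rose (log2 fold changes 7.56, 5.86 and 5.58), are shared with other somatic lineages, and Fshr had at most 1 count in each library. The part of these cell types and of the fall of the pluripotency markers in the values of the germline genes was not tested.

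Of 19 regulators known to silence germline genes, 7 fell (36.8%), 2 rose (10.5%) and 10 were not called, with a median log2 fold change of -0.67. Of all genes averaging 5 or more normalized counts, as these 19 did, 24.9% fell and 26.8% rose. Dnmt3l, the cofactor of the de novo DNA methyltransferases, had 12567 and 13036 normalized counts in Undiff and 4.18 and 3.07 in Day4 (log2 fold change -11.77). Its Day4 value rests on 4 counts in each library, and its exons overlap those of Aire on the opposite strand. Dnmt3b, a de novo methyltransferase, had 19124 and 18056 in Undiff and 469 and 471 in Day4 (log2 fold change -5.30, SE 0.06). Dnmt3a, also a de novo methyltransferase, went the other way, with 10242 and 10246 in Undiff and 16776 and 16746 in Day4. Its log2 fold change of 0.71 (SE 0.04, adjusted p = 8.2e-10) was below the minimum. Dnmt1 was not called either (log2 fold change -0.67, SE 0.04). Among PRC1.6 genes, E2f6 rose, with 1069 and 1052 normalized counts in Undiff and 2922 and 2824 in Day4 (log2 fold change 1.44, SE 0.05), as did Yaf2 (log2 fold change 2.66, SE 0.06). L3mbtl2 (log2 fold change -2.33, SE 0.05), Pcgf6 (log2 fold change -1.63, SE 0.05) and Mga (log2 fold change -1.14, SE 0.04) fell, and Max was not called (log2 fold change -0.10, SE 0.05, adjusted p = 0.095). E2f6, Mga and Max, for the motifs shown above, and L3mbtl2, Pcgf6, Dnmt3a and Dnmt1 were named after their values were seen. The remaining genes of this list are given only in the counts.

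RefSeq promoters of 300 bases, from 250 before to 50 after the start, were matched for 33 of the 39 genes, and those of Tdrd6, Piwil2, Rnf17, Spo11, Tex11 and Tex15 were not. The RefSeq start lay 33722 bases from the outer GENCODE start for Piwil1, 4625 for Tex101 and 1247 for Msh4. It lay 785 bases from it for Stra8, 316 for Tdrd5 and 269 for Stag3. The outer starts of all these genes were outside the windows, so that other starts of these genes were not searched. The E-box CACGTG was in 14 of the 33 promoters (42.4%), against 8.16% of the promoters of 17224 genes in the count files. The E2F core TCCCGC, searched on both strands, was in 15 (45.5%), against 26.0% of all. Both motifs were in 7 (21.2%), namely Mael, Slc25a31, Hormad1, Sycp1, Stag3, Sycp3 and Ddx4, against 2.79% of all, and each of these 7 genes fell. The median ratio of observed to expected CpG was 0.704 in the germline genes and 0.581 over all promoters, and the median GC content was 60.3% and 56.7%. Among promoters with a CpG ratio of at least 0.6, the E-box was in 12 of 22 germline promoters (54.5%) and in 11.6% of 8394 promoters of all genes, and the E2F core was in 13 of 22 (59.1%) and in 43.7%.

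The E-box was in 12 of the 27 promoters of genes that fell (44.4%) and in 2 of the 6 others (33.3%), those of Brdt and Tdrd9. The E2F core was in 13 of the 27 (48.1%) and in 2 of the 6 (33.3%), and both motifs were in 7 of the 27 (25.9%) and in none of the 6. With 6 promoters on one side, these shares are given as a description only. Of the 4 genes with the largest change printed above, 2 held an E-box and 2 held none. In Hormad1 the E-boxes begin 57 and 20 bases before the RefSeq start, and in Sycp3 64 and 43 bases before it. That of Mov10l1 begins 246 bases before the RefSeq start. GENCODE places the start 85 bases farther upstream for Mov10l1 and 18 for Sycp3, and thus nearer to these E-boxes. A retinoic acid response element of the DR5 type was in none of the 33 promoters and in 11 of all 17224 (0.0639%). A match or its absence describes the letters of these windows, and no binding was measured here.

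**Figure D5:**
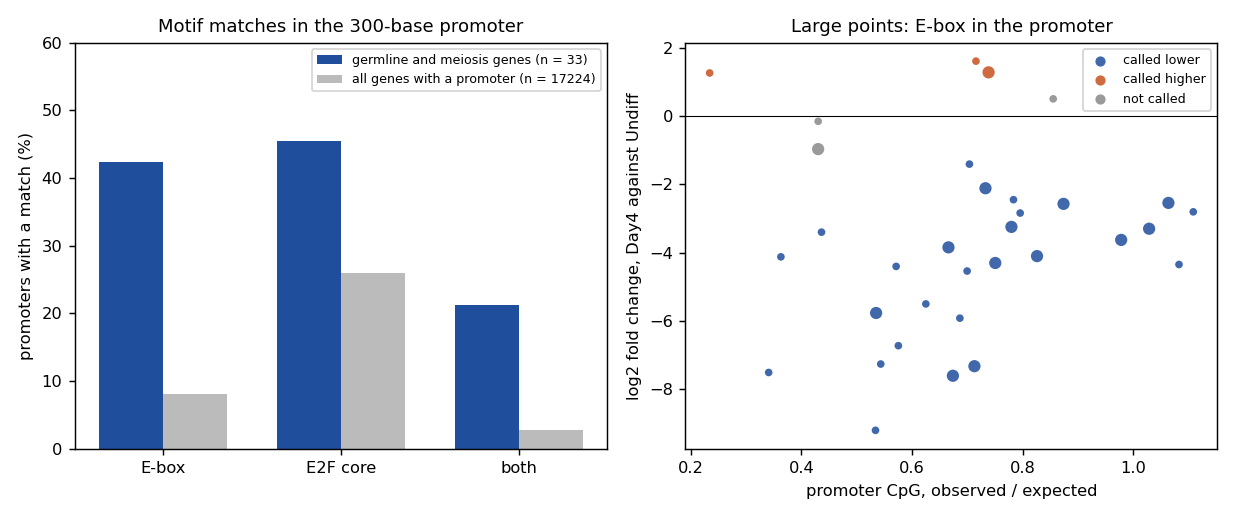
Left, share of promoters with a motif (y axis, %, from 0) for the germline and meiosis genes (33 promoters, blue) and all genes (17224 promoters, grey), 42.4% against 8.16% for the E-box. Right, ratio of observed to expected CpG (x axis) and log2 fold change (y axis) of the 33 genes, coloured by call, with large points for promoters with an E-box, which are found among genes that fell, rose (Brdt) and were not called (Tdrd9).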

How the data were processed

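Illumina TruSeq libraries of R1 ESCs (2 Undiff, 2 Day4) were analysed, grouped by their titles. The authors used cutadapt for trimming, STAR 2.4.2a for alignment to mm10 and HTSeq for counting uniquely aligned fragments. The deposited values are counts per gene symbol, without normalization. The methods name only the study's Direct RNA long-read samples as strand-specific in gene counting, and the setting for these libraries is not stated. The labels also name a RiboZero kit. According to the methods, the replicates were separately grown and treated. Replicates differed by more than counting noise (chi-square per degree of freedom 5.71 in Undiff and 3.07 in Day4). An exact permutation test of 2 against 2 cannot go below p = 0.333, so single-gene tests rest on the fit over all genes.

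The members and lists were chosen with earlier results of these data known. The test was edgeR 4.0.16's quasi-likelihood test (glmQLFit, glmQLFTest) in R 4.3.3 on TMM-normalized counts with state alone as the term, over 19891 genes, with Benjamini-Hochberg adjustment. Standard errors are the absolute log2 fold change over the square root of F. Where a state has few counts, they can be smaller than the counting error alone, and counting intervals are given for several such genes. Normalized counts were brought to one common effective library size, the geometric mean over libraries. Counting intervals (95%, Clopper-Pearson) cover counting error only. RPKM was computed on GENCODE vM21 exons with TMM-scaled library sizes. In simulated counts with 200 changed genes the test was checked for recovery. All 39 members were named, of other lists at most the 3 called genes with the largest absolute log2 fold change and a mean of at least 1 CPM, and markers at the floor. Nanos3, Dnmt3a, Dnmt1 and 5 PRC1.6 genes fall outside this rule and were named after their values were seen. Alternatives were DESeq2 1.42.0, other scalings, filters and thresholds, a replicate block, thinning and leaving out each library. Long-read libraries were not analysed here.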

Additional observations from a re-analysis of the deposited data

How the results depend on the processing

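Across 14 alternatives, the count of germline and meiosis genes that fell lay between 30 and 32 and the count that rose was 3 or 4, the highest of both with no minimum on the fold change. Leaving out each library in turn gave 30 to 31 that fell and 3 that rose. Tdrd9 passed the threshold with DESeq2 size factors (log2 fold change -1.01, adjusted p = 0.022), with all libraries thinned to the smallest total (-1.18, adjusted p = 0.040) and without Undiff replicate 2 (-1.23, adjusted p = 0.012), whereas its adjusted p exceeded 0.05 with DESeq2 under the study's settings (0.18) and without shrinkage (0.19), and without Undiff replicate 1 (0.28), Day4 replicate 1 (0.056) or Day4 replicate 2 (0.092). The log2 fold change of Spo11, which was not called, ranged over the left-out libraries from -1.09 to 0.20 (without Day4 replicate 1), and that of Stra8, also not called, from -0.62 to 0.26 (without Day4 replicate 2). The summed level of the 39 genes in Undiff was 742 CPM with TMM-scaled library sizes, against 725 CPM with library totals. Over all genes, dropping the minimum fold change raised the calls from 4420 higher and 4101 lower to 7305 and 7004. The median log2 fold change of all genes was -0.10 without Day4 replicate 2, against -0.03. Replicate numbers did not pair the samples (r = -0.02 over 15584 genes), and with the replicate block 30 members fell and 3 rose. Leaving out a single library moved the fold by over 1.5 times for 5 of the 33 called members (Hormad1, Hormad2, Piwil1, Piwil4 and Tex101). Values of a few counts, as in these genes and Msh4 in Day4, are limited by depth.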
